A study of Mus musculus with 4 samples.

Results

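The genes described here are 10 homeobox genes of mouse chromosome 6: Hoxa3, Hoxa4, Hoxa5, Hoxa6, Hoxa7, Hoxa9, Hoxa10, Hoxa11 and Hoxa13 of the HoxA cluster, and Evx1 beside it. They were chosen by name, out of 22225 protein-coding genes of the annotation. Chromatin accessibility was measured by ATAC-seq, in which the Tn5 transposase tags open DNA, in limb cells of E11.5 mouse embryos from the cross labelled c57bl6.J X 129S6.sv. Each library joined forelimb and hindlimb cells that were fixed before transposition. The mutant genotype, with 2 libraries, carried a stop cassette insertion, and the 2 libraries of the other genotype were wild type. The labels used here give neither the position of the cassette nor whether 1 or both alleles carried it, and they do not say whether replicates came from separate embryos. Peak names in the wild-type lists carry a shared replicate number with a sub-number, so the spread between those 2 libraries may be technical. The p-values measure only the spread between these libraries.

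Each library came with its own list of peak summits, positions of 1 bp with a score that behaves as −log10 of a q-value. The lists held 79083 and 107827 summits (stop cassette replicates 1 and 2) and 51701 and 68471 (wild-type replicates 1 and 2). Read depth is unknown, so scores were ranked within a list, from percentile 0 for the weakest summit to 100 for the strongest. Fewer cells with an open site and less opening per cell cannot be told apart in such bulk data. Starts of the limb mesenchyme list carried a summit within 1 kb for 11, 10, 8 and 11 of 12 genes, in the order of libraries just given, and those of the liver list for 0 of 5 in each library. Tbx5 had none in any list, and Lmx1b had one in 2 lists. Of the other lists, limb ectoderm had 4, 6, 2 and 4 of 8, blood 3 of 5 in each, endothelium 1, 2, 1 and 1 of 5, muscle precursors 2, 4, 1 and 1 of 5, and neurons 2, 4, 4 and 4 of the 4 genes annotated. Over all protein-coding genes the share with a summit by this rule was 61.7%, 64.6%, 59.2% and 61.7%, in the same order of libraries. The part of the listed cell types in the values that follow was not tested.

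Hox genes encode homeodomain transcription factors that give cells along an axis their positional identity, and their order along the chromosome follows their order of expression. In the limb bud the 5′ genes of the HoxA cluster, toward Hoxa13, are known for patterning from shoulder to digits, and long-range enhancers around the cluster are known to drive them. In mm9 the 10 genes spanned positions 52113358 to 52268372 of chromosome 6, a length of 155 kb. All Hoxa genes lie on the minus strand, and Evx1 lies on the plus strand at the Hoxa13 end. The span also contains the transcript 2700086A05Rik and the 5′ part of Hoxa2. Hoxa3 is annotated under 2 identifiers, with transcripts that start as far away as Hoxa6.

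Summits extended by 250 bp on each side were merged over the 4 lists into 21 regions inside the cluster. The 3 regions held by all 4 lists lay at Hoxa6, Hoxa7 and Hoxa13, and their sequences are shown first because they are the sites of the cluster at which every library had a summit. The 3 that follow are the highest-ranked region between Hoxa13 and Evx1, the intergenic region between Skap2 and the cluster that all 4 lists held, and the highest-ranked region between Evx1 and Hibadh. Each stretch is 200 bases of the NCBIM37 (mm9) plus strand at the highest-ranked summit, moved off annotated exons where needed. Capitals mark the letters of the HOX13-type motif CAATAAA.
Hoxa6 region, chr6:52161581-52161780: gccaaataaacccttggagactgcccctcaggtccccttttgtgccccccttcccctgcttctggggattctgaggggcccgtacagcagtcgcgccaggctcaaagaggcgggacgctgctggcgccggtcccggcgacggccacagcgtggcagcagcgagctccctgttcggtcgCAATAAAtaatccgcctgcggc
Hoxa7 region, chr6:52171854-52172053: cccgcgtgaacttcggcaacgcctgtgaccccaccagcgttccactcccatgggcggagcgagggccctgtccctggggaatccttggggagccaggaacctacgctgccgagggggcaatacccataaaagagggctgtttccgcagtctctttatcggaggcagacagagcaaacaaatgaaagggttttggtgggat
Hoxa13 region, chr6:52210875-52211074: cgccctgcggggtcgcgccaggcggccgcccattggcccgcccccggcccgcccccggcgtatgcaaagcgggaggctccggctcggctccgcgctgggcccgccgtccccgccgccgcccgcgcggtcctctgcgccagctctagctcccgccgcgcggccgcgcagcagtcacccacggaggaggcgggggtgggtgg
Hoxa13 to Evx1 interval, chr6:52256194-52256393: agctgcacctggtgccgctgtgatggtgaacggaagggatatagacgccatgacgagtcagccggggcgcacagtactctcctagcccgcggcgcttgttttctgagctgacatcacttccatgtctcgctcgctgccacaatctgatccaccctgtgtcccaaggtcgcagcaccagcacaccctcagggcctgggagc
Skap2 to Hoxa interval, chr6:52003692-52003891: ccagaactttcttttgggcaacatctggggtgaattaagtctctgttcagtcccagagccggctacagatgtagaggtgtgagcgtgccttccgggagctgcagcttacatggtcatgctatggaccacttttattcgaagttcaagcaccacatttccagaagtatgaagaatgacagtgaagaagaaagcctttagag
Evx1 to Hibadh interval, chr6:52393161-52393360: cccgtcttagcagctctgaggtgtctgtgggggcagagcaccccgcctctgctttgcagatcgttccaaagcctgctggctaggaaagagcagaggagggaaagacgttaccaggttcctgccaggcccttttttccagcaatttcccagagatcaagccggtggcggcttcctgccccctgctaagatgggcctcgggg

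The Hoxa13 stretch, which begins beside the outermost Hoxa13 start and runs upstream of it, had 82.5% G and C and 33 CpG dinucleotides. The Hoxa6 and Hoxa7 stretches had 65.5% and 59.5% with 16 and 11 CpGs, and the stretch between Hoxa13 and Evx1 had 61.0% with 12. The stretches between Skap2 and the cluster and between Evx1 and Hibadh were poorer in CpG, with 4 and 7. In windows reaching 150 bp to each side of the highest-ranked summit, the cluster regions had a median of 20 CpGs and 59.5% G and C, against 5 CpGs and 50.5% over 74585 regions of the genome.

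Summits lay within 1 kb of a start for 7 of the 10 genes in stop cassette replicate 1 and 8 in replicate 2, and for 3 in wild-type replicate 1 and 5 in replicate 2. The same rule found a summit at 61.7%, 64.6%, 59.2% and 61.7% of all protein-coding genes in these lists. Hoxa6, Hoxa7 and Hoxa13 had one in all 4 lists, 3 of 10 where 57.7% of protein-coding genes did. Hoxa11 and Evx1 had one in no list, 2 of 10 where 34.3% of protein-coding genes had none. The genes had between 1 and 6 annotated start positions each, and more starts give more chances of a summit. The plot of percentiles by gene shows these values.

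**Figure D1:**
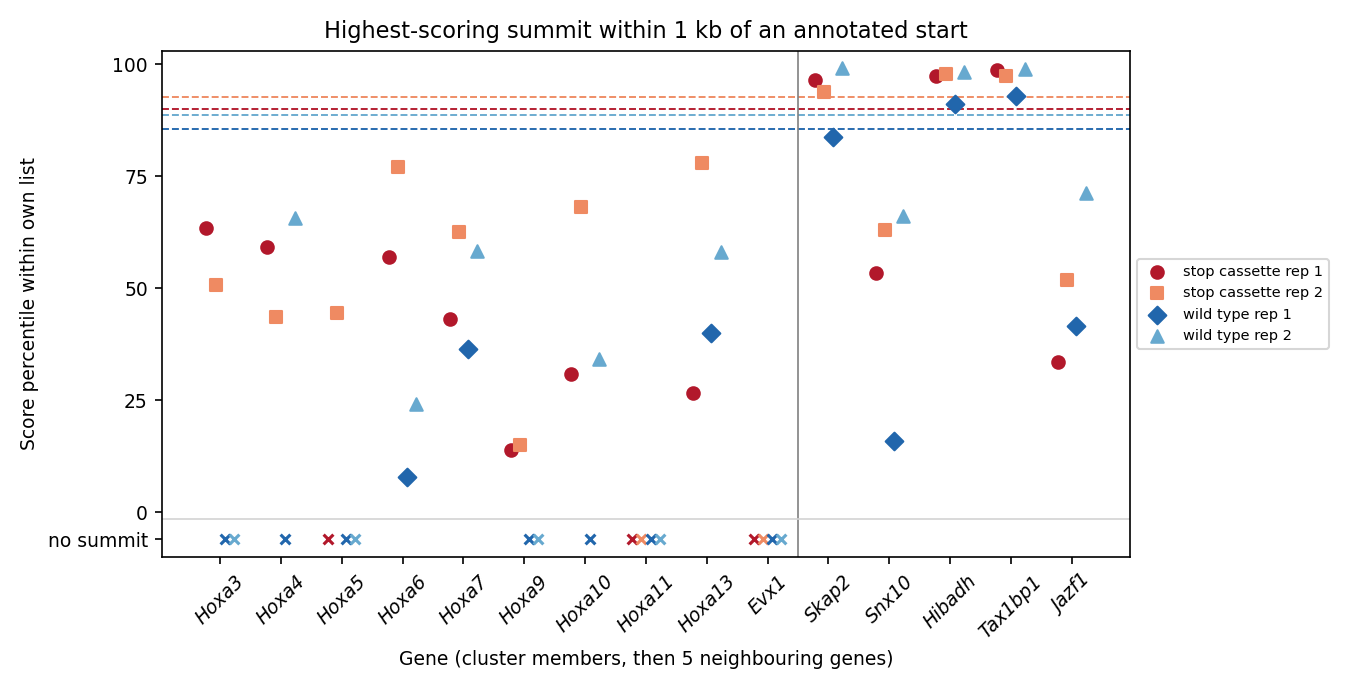
Score percentile within its own list (vertical axis) of the highest-ranked summit within 1 kb of an annotated start, for the 10 genes and 5 neighbouring genes, with 1 point per library. Crosses mark lists with no summit there, and dashed lines mark the median over all protein-coding genes with a summit in that list; all points of the 10 genes lie below the 4 lines, between 7.99 and 78.0.

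Hoxa3, at the 3′ end of the described set and known for its role in the pharyngeal arches, had summits in the stop cassette lists, at the 63.5 percentile in replicate 1 and the 50.7 percentile in replicate 2. No summit of a wild-type list lay within 1 kb of any of its starts, and the nearest ones were 1305 and 1302 bp away. The highest-ranked stop cassette summits were 10 bp apart and lay just upstream of the innermost Hoxa3 start, in an intron of the longer transcripts.

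Hoxa4 was at the 59.1, 43.5 and 65.6 percentiles in stop cassette replicates 1 and 2 and wild-type replicate 2, and it had no summit in wild-type replicate 1. These values overlap between the genotypes. Hoxa5, known for roles in the lung and the trunk skeleton, had a summit in stop cassette replicate 2 alone, at the 44.4 percentile and 24 bp from its start.

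Hoxa6 had summits in all 4 lists, at the 57.0 and 77.2 percentiles in the mutant libraries and the 7.99 and 24.3 percentiles in wild type. Both stop cassette values were above both wild-type values. The highest-ranked summits lay within 83 bp of one another, upstream of the longer Hoxa6 transcript, inside the stretch printed above and inside an intron of Hoxa3. At equal list length wild-type replicate 2 had no summit there, and the other 3 lists gave 34.2, 52.4 and 7.99.

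Hoxa7 was at the 43.1 and 62.6 percentiles in mutant libraries, and in wild type at 36.5 and 58.2, so the genotypes overlapped. The highest-ranked summits of the 4 lists spread over 5461 bp, since they lay at different starts. At its outermost start all 4 lists had a summit, at 43.1, 54.1, 36.5 and 12.8, and at its inner starts stop cassette replicate 2 and both wild-type lists did, at 62.6, 9.06 and 58.2.

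Hoxa9, which acts in the upper limb segment together with its HoxD paralogue, was the lowest-ranked gene with a summit. Its percentiles were 14 and 15 in stop cassette replicates 1 and 2, at positions 708 bp apart, and no wild-type list had a summit within 1 kb of its starts. Hoxa10 had summits in 3 lists, at 31.0 and 68.2 in the mutant lists and 34.1 in wild-type replicate 2, within 109 bp of one another. Hoxa10 is likewise known from the upper segment of the limb.

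Hoxa11, which patterns the forearm and lower leg, had no summit within 1 kb in any list. The nearest summits were 5296, 5200, 14713 and 5187 bp from a Hoxa11 start. In 3 of the lists these were the summits at the outermost Hoxa10 starts, and in wild-type replicate 1 it was the summit at Hoxa13.

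Hoxa13, the gene of the hand and foot plate, had summits in all 4 lists, at the 26.7 and 78.0 percentiles in the mutant libraries and the 40.1 and 58.2 percentiles in wild type. The wild-type values lay between the stop cassette values. The 4 summits fell within 56 bp, between 30 and 86 bp upstream of the outermost Hoxa13 start, inside the GC-rich stretch printed above. At equal list length stop cassette replicate 1 no longer had one.

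Evx1, a homeobox gene of the even-skipped type that is known from spinal interneurons, had no summit within 1 kb in any list. The nearest were 7286, 6441, 21974 and 7209 bp away. In stop cassette replicate 1 and wild-type replicate 2 the nearest summits belonged to the region between Hoxa13 and Evx1 whose sequence is printed above, and in stop cassette replicate 2 it lay past the 3′ end of Evx1. The region between Hoxa13 and Evx1 ran from 52255774 to 52256544 and ranked at 49.1 and 76.4 in the stop cassette lists and 55.3 in wild-type replicate 2.

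Ordered by the mean over the lists with a summit, the genes ran from Hoxa3 (57.1 ± 9.03, SD, n = 2) and Hoxa4 (56.1 ± 11.4, n = 3) through Hoxa13 (50.8 ± 22.3, n = 4), Hoxa7 (50.1 ± 12.3, n = 4), Hoxa10 (44.4 ± 20.6, n = 3), Hoxa5 (44.4, 1 list) and Hoxa6 (41.6 ± 31.3, n = 4) to Hoxa9 (14.5 ± 0.679, n = 2). Neighbours in this order from Hoxa3 to Hoxa6 differed by less than their SDs, and the means rest on different lists. The step from Hoxa6 to Hoxa9 was also within the SD of Hoxa6.

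Every value of the 10 genes lay below the median over all protein-coding genes with a summit in the same list. That median was 90.0 in stop cassette replicate 1 and 92.6 in replicate 2, and 85.5 in wild-type replicate 1 and 88.6 in replicate 2. The genes' own medians were 43.1 (7 genes), 56.7 (8 genes), 36.5 (3 genes) and 58.2 (5 genes). In each list 0 of these genes exceeded the median over all genes. The highest values, 63.5, 78.0, 40.1 and 65.6, were also below the lower quartiles over all genes, 76.7, 83.2, 69.5 and 76.1.

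Genes near the cluster covered a wider range. Skap2, an adaptor protein gene, was at the 96.4, 93.7, 83.9 and 99.1 percentiles. Hibadh, an enzyme of valine breakdown, was at 97.4, 97.7, 91.2 and 98.2, and Tax1bp1, an autophagy receptor gene, at 98.7, 97.3, 92.9 and 98.8. Snx10 was at 53.5, 63.0, 15.97 and 66.0, and Jazf1 at 33.5, 51.8, 41.7 and 71.2. In the mutant lists both lay within the range of the Hoxa genes of the same list. In wild-type replicate 2 both exceeded the highest Hoxa gene, at 65.6, and in wild-type replicate 1 Jazf1 did, against 40.1.

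The genotypes were compared over libraries by exact permutation tests, two-sided, in which 2 against 2 libraries cannot give a p-value under 0.333. The number of the 10 genes with a summit at a start averaged 7.50 ± 0.707 in mutant libraries against 4 ± 1.41 in the wild type (exact permutation p = 0.333, ± SD, n = 2 per genotype). Both stop cassette lists are longer, and when all lists were reduced to the 51701 highest-scoring summits the numbers were 4 and 4 against 3 and 4. By the same rule at that length, 57.9% and 59.96% of all protein-coding genes had a summit in the mutant lists, and 59.2% and 59.6% in those of the wild type. At equal length Hoxa7 had a summit in all 4 lists, Hoxa6 and Hoxa13 in 3, Hoxa4 and Hoxa10 in 2 and Hoxa3 in 1, and Hoxa5, Hoxa9, Hoxa11 and Evx1 in none. The Hoxa7 summits lay at different starts, since wild-type replicate 2 kept none at the outermost one.

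**Figure D2:**
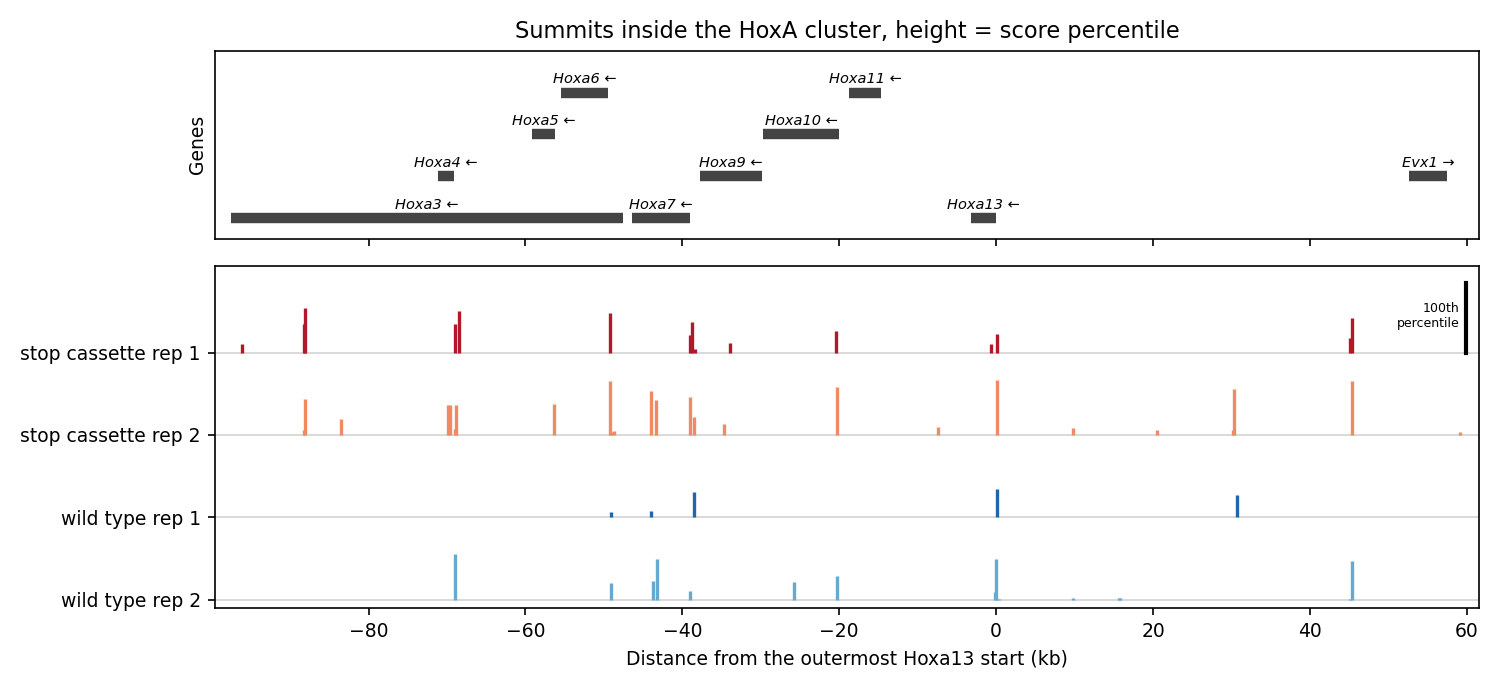
Position of each summit relative to the outermost Hoxa13 start (horizontal axis, kb), with the gene models above and 1 row per library; the height of a line is the score percentile within that list. All 4 libraries have a line at Hoxa13, at the outermost Hoxa7 start and at Hoxa6, and none has one at Hoxa11 or at the Evx1 start.

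Inside the cluster lay 15 and 25 summits of the mutant lists and 5 and 15 of the wild-type lists. The means were 20 ± 7.07 and 10 ± 7.07 (exact permutation p = 0.667, ± SD, n = 2 per genotype), and stop cassette replicate 1 and wild-type replicate 2 had the same number. Per 10000 summits of a list, the cluster held 1.90 (95% Wilson interval 1.15 to 3.13) and 2.32 (1.57 to 3.42) in the mutant lists, and 0.967 (0.413 to 2.26) and 2.19 (1.33 to 3.61) in wild type. These intervals cover counting error only, and all 4 overlap. The group means were 2.11 ± 0.298 and 1.58 ± 0.865 (exact permutation p = 0.667, n = 2 each), and without wild-type replicate 1 the difference changed sign, to -0.0831. With lists of equal length the differences fell to 1 summit and 0.193 per 10000 (exact permutation p = 1 for both). Among summits above the pooled median score the difference was 4.50 summits (exact permutation p = 0.667).

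The summits of the cluster were mostly of low rank. Their median percentile was 31.0 and 42.9 in the mutant lists and 31.7 and 24.3 in wild type, where the median of a list is 50 by construction. Above that median lay 3 of 15, 9 of 25, 0 of 5 and 4 of 15 summits. The group means were 36.9 ± 8.43 and 28.0 ± 5.26 (exact permutation p = 0.667, ± SD, n = 2 per genotype). At equal list length the difference of 8.93 percentile points turned to -8.41. From Hoxa3 to the outermost Hoxa13 start, the difference was 21.5 percentile points and the genotypes did not overlap (exact permutation p = 0.333, the smallest possible). That span leaves out the stretch to Evx1 and also the highest-ranked Hoxa13 summit of every list, which lay just upstream of that start. Wild-type replicate 1 was left with summits at 7.99, 9.06 and 36.5. Over that shorter span the difference in summits was again 10, with p = 0.333 by the same exact test.

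Of the 21 regions of the cluster, 13 lay within 1 kb of a start of the 10 genes, and 6 of these 13 were held by 3 or 4 lists. Of the other 8, 1 was held by 3 lists, the region between Hoxa13 and Evx1. By annotation at the highest-ranked summit, 8 regions were intergenic, 7 intronic, 5 in a UTR and 1, in stop cassette replicate 1 alone at the 12.1 percentile, in a coding exon of Hoxa13. All 4 lists held 3 regions (14.3%), where 32.0% of the 74669 regions of the genome were held by all 4. Single lists accounted for 11 regions, 6 of them in stop cassette replicate 2, 3 in stop cassette replicate 1 and 2 in wild-type replicate 2.

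The 5 regions with the highest mean percentile, counting a missing list as 0, were those at Hoxa13 (50.8), between Hoxa13 and Evx1 (45.2), just upstream of Hoxa4 from 52141634 to 52142651 (42.1), at Hoxa6 (41.6) and at the outermost Hoxa7 start from 52171620 to 52172760 (36.6). The longest stretches with no summit in any list ran on either side of the region between Hoxa13 and Evx1, for 14.5 kb before it and 13.7 kb after it, the latter across the Evx1 gene. A stretch of 13.6 kb ended at Hoxa4, and one of 12.9 kb covered Hoxa11, from the outermost Hoxa10 starts to a summit 7287 bp from the nearest Hoxa13 start.

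A single region of the cluster was found in the 2 mutant lists but absent from the wild-type ones, 1 of 21 (4.76%), where 10% of the regions of the genome were. It was the Hoxa3 region from 52122360 to 52123049. Regions held by both wild-type lists alone numbered 0 of 21, where the share over the genome was 0.313%. At equal list length the genome shares were 5.22% and 2.24%, and the cluster, then with 10 regions, had 0 of either kind. The Hoxa3 summit was then left in stop cassette replicate 1 alone. The counts with their alternatives carry no test.

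In the 500 kb on the Skap2 side the lists held 13 and 23 mutant summits against 9 and 18 from the wild type (18.0 ± 7.07 and 13.5 ± 6.36, ± SD, exact permutation p = 0.667, n = 2 per genotype). In the 500 kb on the Hibadh side they held 8 and 22 against 5 and 14 (15 ± 9.90 and 9.50 ± 6.36, ± SD, exact permutation p = 0.667, n = 2 per genotype). On both sides the genotypes overlapped, and at equal list length the differences of 4.50 and 5.50 turned to -1 and -3. Without stop cassette replicate 2 they were -0.500 and -1.5. Among summits above the pooled median score the Skap2 side held 8 and 11 against 3 and 6, with no overlap (difference 5, exact permutation p = 0.333), and the Hibadh difference was 0.5 (exact permutation p = 1). That threshold kept 43678 and 54554 summits in the whole mutant lists, and 23148 and 32159 in those of the wild type. The lengths of the lists thus also separated by genotype. With flanks of 250 kb the differences were 1 and 3. With flanks of 1 Mb they were 20.5 (exact permutation p = 0.333) and 20 (exact permutation p = 0.667).

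Over the genome all 4 lists held 32.0% of the regions. On the Skap2 side they held 5 of 14 (35.7%). The highest-ranked was the Skap2 start, and 3 were intergenic: one from 51759120 to 51759902 (36.8, 84.5, 15.97 and 68.6), one from 51807658 to 51808361 near the 3′ end of Skap2 (68.6, 57.7, 4.54 and 67.8), and the one between Skap2 and the cluster printed above, from 52003485 to 52004703 (21.6, 70.5, 39.2 and 58.2). In all 3 the genotypes overlapped.

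On the Hibadh side all 4 lists shared 2 of 21 regions (9.52%, against 32.0% over the genome), at the starts of Hibadh and Tax1bp1. Between Evx1 and Hibadh, 2 intergenic regions were held by 3 lists; they are named here after their values were seen. The one from 52367467 to 52368235, 104 kb from an Evx1 start, ranked at 21.6 and 55.7 in the mutant lists and 57.6 in wild-type replicate 2. The one from 52393011 to 52394209, which holds the last stretch printed above, ranked at 52.9 in stop cassette replicate 2 and at 52.1 and 41.0 in wild type. The flanks had 1 region each held by both stop cassette lists alone. These were a Skap2 intron from 51810240 to 51810745 (5.26 and 34.7) and an intergenic region from 52426798 to 52427310 (21.6 and 57.7), and in neither did both lists keep a summit at equal length. At that length 1 of 10 Skap2-side regions (10%) was held by both stop cassette lists alone, where 5.22% of the regions of the genome were. It was a different region, which wild-type replicate 2 also held in the lists as deposited.

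**Figure D3:**
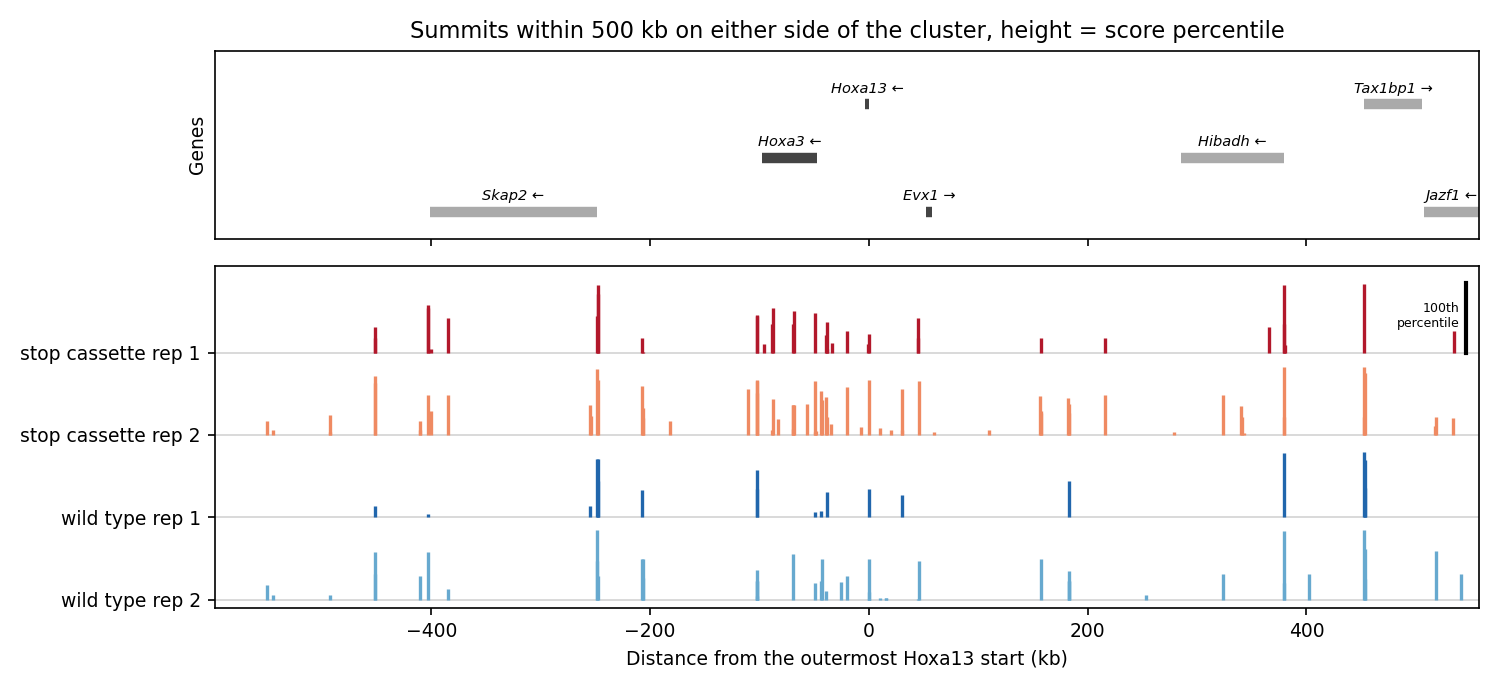
Position of each summit within 500 kb on either side of the cluster relative to the outermost Hoxa13 start (horizontal axis, kb), with selected gene models above and 1 row per library; the height of a line is the score percentile within that list. Within each list the tallest lines stand at the Skap2, Hibadh and Tax1bp1 starts, between 83.9 and 99.1, and the lines of the cluster are shorter. An intergenic line of stop cassette replicate 2 reaches 84.5.

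Summits were denser in the cluster than around it in each of the 4 libraries. The cluster had 9.68, 16.1, 3.23 and 9.68 summits per 100 kb, its flanks 2.10, 4.50, 1.40 and 3.20, and the placed chromosomes as a whole 2.98, 4.06, 1.94 and 2.58. The difference between cluster and flanks was 6.88 ± 4.03 (SD over libraries; exact sign-flip permutation p = 0.125 over 4 libraries, the smallest possible). At equal list length it was 2.44 ± 0.642, higher in the cluster in 4 of 4 libraries (p = 0.125, exact sign-flip permutation). Among summits scoring above the pooled median it was 1.62 ± 1.88, higher in 3 of 4 libraries (p = 0.25, exact sign-flip permutation).

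The HoxD cluster with Evx2, a paralogous cluster that acts in the same limb segments and spans 112 kb of chromosome 2, had 14.3, 24.97, 7.13 and 16.05 summits per 100 kb. It was denser than the HoxA cluster in all 4 libraries, by 5.93 ± 2.202 on average (exact sign-flip permutation p = 0.125, the smallest possible). The HoxA minus HoxD difference was -3.61 ± 2.63 at equal list length and -1.49 ± 0.612 among summits above the pooled median score, negative in 4 of 4 libraries in both (exact sign-flip permutation p = 0.125 for each). Summits of the HoxD cluster were likewise of low rank, with medians of 25.3, 37.7, 31.8 and 45.5. Within a library the clusters share depth, and the numbers of HoxD summits were 16 and 28 in mutant libraries and 8 and 18 in the wild-type ones.

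**Figure D4:**
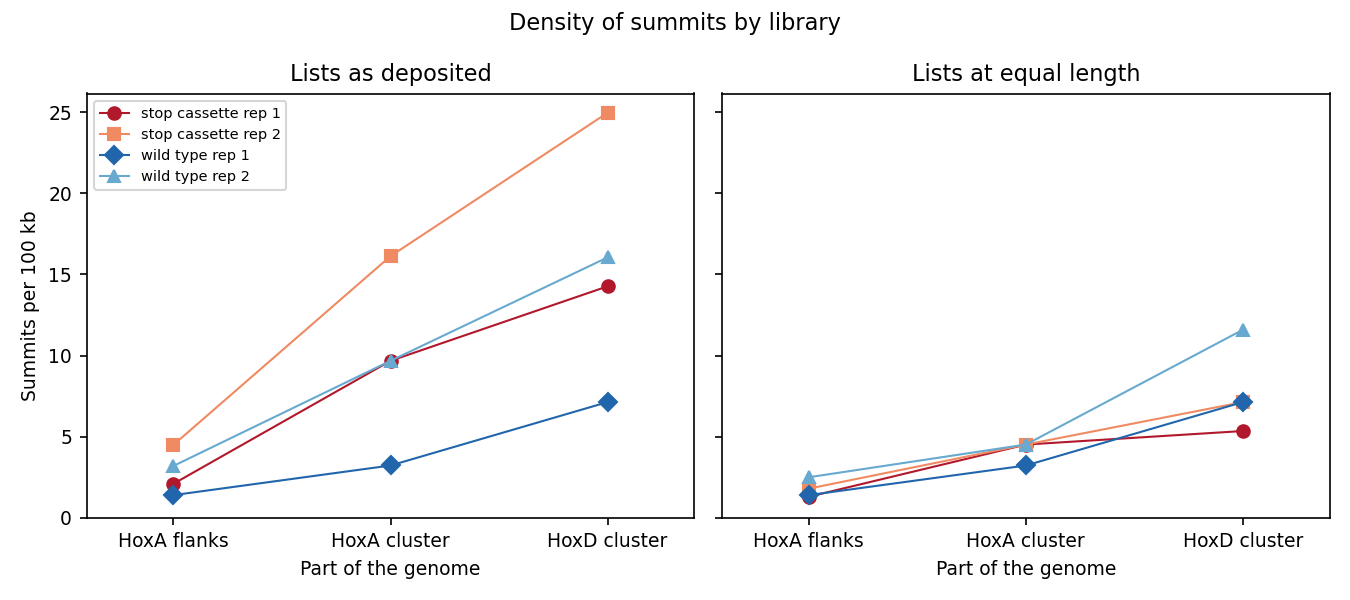
Summits per 100 kb (vertical axis) in the flanks of the HoxA cluster, the HoxA cluster and the HoxD cluster, with 1 line per library, for the lists as deposited (left) and at equal length (right). The cluster lies above its flanks and below the HoxD cluster in all 4 libraries in both panels, and the 4 libraries lie closer together at equal length, between 3.23 and 4.52 in the HoxA cluster.

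Motifs were searched on both strands within 150 bp of the highest-ranked summit of each region, without regard to overlaps between motifs. The HOX13-type motif CAATAAA was in 1 of 21 cluster regions (4.76%), that at Hoxa6, where 5.85% of all regions held it. On the Skap2 and Hibadh sides it was in 1 of 14 and 4 of 21 regions. The homeodomain core TAATTA was in 2 cluster regions (9.52%; 8.14% of all regions), inside Hoxa7 and Hoxa4, and in 1 region of each flank. The CTCF core, read as CCA, any pair of bases, AG, any pair of bases and GGC, was in 2 cluster regions (9.52%; 10.6% of all regions), at the outermost starts of Hoxa7 and Hoxa10, and in 0 of 14 and 2 of 21 flank regions. The Hoxa7 match lies outside the stretch printed above. A match of letters is a description and not a bound site.

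Starts of a further list, 24 Hox cofactors, chromatin regulators and HoxD genes of which 23 are annotated, carried a summit for 22 and 23 genes in the mutant lists and 20 and 23 in wild type. By the same rule 61.7%, 64.6%, 59.2% and 61.7% of all protein-coding genes had one. Median percentiles of the list were 83.0, 83.0, 84.5 and 76.1, above the medians of the Hoxa genes in each library. They were below the medians over all protein-coding genes with a summit, 90.0, 92.6, 85.5 and 88.6. The Hoxd genes of the list with a summit lay between 11.6 and 66.4 over the 4 libraries. The list holds, among others, Meis1 and Meis2, partners of Hox proteins on DNA, and Ezh2 and Eed of the Polycomb complex that silences Hox genes.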

How the data were processed

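Per the submitters' processing notes, reads were handled with Bowtie2 2.2.6 and Picard on mm9. Peak names carry tags for the removal of duplicates and mitochondrial reads and for mapping quality 30. The peak caller and any Tn5 shift are not given in the sources used here. The authors called summits in each library separately and deposited each with a value that reads as −log10 of a q-value, since the lowest is 1.30 or 1.31, where q is 0.05. The genome and GENCODE M1 annotation used were NCBIM37 (mm9), and no chromosome of the 21 compared was shorter than its last summit.

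Scores were ranked within a list, with ties at their mean rank. Starts are all annotated transcript starts. Regions were merged from extended summits (at least 1 bp of overlap). The step was tried on simulated lists that shared 1 set of summits. These lack the differing lengths of the real lists, so they test only that planted regions are found. The 10 genes, the 8 gene lists, the tests and the alternatives were chosen with earlier results of these data known. The text names the 10 genes, 5 neighbouring genes and, of the regions, the 5 highest-ranked of the cluster, the 5 highest-ranked of each flank held by all 4 lists, and all held by the lists of 1 genotype alone; 1 flank region is not reported here. Alternatives were equal list length (51701), scores above the pooled median of 5.83, joining summits closer than 200 bp, the cluster without Evx1, flanks of 250 kb or 1 Mb, starts within 500 bp or 2 kb, extensions of 50, 100 or 500 bp, and each library left out. Python 3.11.15, pandas 2.3.3 and scipy 1.17.1 were used.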

Additional observations from a re-analysis of the deposited data

How the results depend on the processing

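Depth is unknown, no test between genotypes could pass 0.05, and no p-value did. Of the alternative values, 119 kept the direction of a difference or stayed within 1.5 times a count, 6 reversed and 31 moved further. At equal list length the differences reversed to -1 (Skap2 flank summits), -3 (Hibadh flank summits) and -8.41 percentile points (median of the cluster). Cutting the 3 longer lists removes their weakest summits by construction. Equal length also left 0 cluster regions in all 4 lists. Of regions held by both stop cassette lists alone, it left 0 in the cluster and on the Hibadh side, and 1 on the Skap2 side. The stricter threshold gave 0 cluster regions and 1 Skap2-side region in all 4 lists, and 2 cluster and 0 Hibadh-side regions in both stop cassette lists alone; wild-type replicate 1 then had no cluster summit, so the median percentile could not be compared. For regions of both stop cassette lists alone, extensions of 50, 100 and 500 bp gave 3, 2 and 2 in the cluster, and 50 and 500 bp gave 2 on the Hibadh side. For both wild-type lists alone, 50 bp gave 1 on the Skap2 and 2 on the Hibadh side, and 100 bp gave 1 on each. An extension of 50 bp left 1 Hibadh-side region in all 4 lists. No genome share is given for the stricter threshold or the extensions, so these counts cannot be read against one.

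Leaving out each library in turn, the differences ranged from -0.500 to 9.50 (Skap2 flank), -1.5 to 12.5 (Hibadh flank), -0.0831 to 1.14 per 10000 (share in the cluster), 5 to 15 (cluster summits), 2.50 to 4.50 (genes with a summit) and 2.97 to 14.9 (median percentile). The Skap2 difference was 0 without wild-type replicate 1. Regions of both stop cassette lists alone ranged from 1 to 7 in the cluster (7 without stop cassette replicate 1, 4 without replicate 2 or wild-type replicate 2), 1 to 3 on the Skap2 side and 1 to 9 on the Hibadh side. Those of both wild-type lists alone ranged from 0 to 2 in the cluster and 0 to 3 on the Hibadh side, and cluster regions in all lists from 3 to 6 (6 without wild-type replicate 1). With 1 list standing for a genotype, such counts rise by construction, and no genome share is given to read them against. The density differences ranged from 5.29 to 8.56 (flanks) and -6.60 to -4.96 (HoxD).

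Taking the replicate numbers as pairs (replicate block, exact sign-flip over 2 pairs, smallest p 0.5) gave the same differences, 10 cluster summits, 4.50 and 5.50 flank summits, 0.529 per 10000, 3.50 genes (p = 0.5 for each, exact) and 8.93 percentile points (p = 1). Same-numbered lists share only a number in the labels; deviations of the replicate 1 lists from their group means correlated at 0.181 over 23894 regions.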
